A study of Homo sapiens with 18 samples.

Results

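KMT2C siRNA2 was compared with KMT2C siRNA1 and KMT2C siRNA3, the other siRNAs used against the same gene, in PANC1, COLO357 and SUIT2, 3 established human cell lines of pancreatic ductal adenocarcinoma. The libraries were taken by their titles, 3 with KMT2C siRNA2 against 6 with KMT2C siRNA1 or KMT2C siRNA3, out of 18 libraries in the series. The other 9 libraries (3 with control siRNA and 6 with KMT2D siRNA) entered no test here, and control values are given beside some genes as levels only. All cells had been transfected with siRNA for 48 h before total RNA was taken, so no library is from untransfected cells. Each line gave 1 library per siRNA. Nothing in the labels says whether the transfections were repeated. In the main fit the p-values are set against the spread left after cell line, which includes the difference between siRNA1 and siRNA3 within a line. As siRNA2 is 1 reagent, its p-values do not extend to other siRNAs.

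KMT2C and its close relative KMT2D are large methyltransferases that act within protein complexes and place methyl groups on lysine 4 of histone H3, mainly at enhancers. A siRNA is a short duplex whose guide strand is loaded into an Argonaute protein and directs cleavage of transcripts that match it along its length. A guide can also lower transcripts that pair only with its seed, the few bases near its 5′ end, most often where the match lies in a 3′ untranslated region (3′ UTR), as microRNAs do. Different siRNAs against a single gene therefore share the intended target but not their seed matches.

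The 9 KMT2C libraries held 14205640 to 24869826 gene counts. Read pairs assigned to no single gene made up 34.3% to 53.4% of those listed. The no-feature share was 17.9% ± 6.25 (SD, n = 3) with siRNA2 and 16.8% ± 8.13 (n = 6) with the others (two-sided exact permutation p = 0.926, the smallest this design allows being 0.037). All 7 ductal epithelium markers were expressed, with a summed level of 871 to 4830 counts per 1000000 gene counts (CPM) with siRNA2 and 1025 to 4853 CPM with the others. In PANC1 the ductal keratin KRT7 was low throughout, at 2.56 to 2.73 CPM. The 6 leukocyte markers summed to at most 6.68 CPM in any library, and 4 of the 6 acinar and islet markers were at 0 in all 9 libraries. COL1A1, which made up most of the fibroblast list, reached 149 CPM, and CDH5 of the endothelial list 28.6 CPM, both in COLO357.

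KMT2C mRNA (ENSG00000055609), the intended target, was not lower with siRNA2 than with the other siRNAs. In PANC1 it was at 59.3 CPM with siRNA2, 31.5 with siRNA1 and 35.2 with siRNA3, and in the control library at 48.2 CPM. In COLO357 the levels were 56.2, 44.2 and 77.0 CPM in the same order, against 89.0 CPM in the control. In SUIT2 they were 99.5, 62.9 and 92.1 CPM, against 148 CPM in the control. The siRNA2 library was thus the highest of the KMT2C libraries in PANC1 and SUIT2 and the middle one in COLO357. In PANC1 its KMT2C level lay above that of the control, although its label names an siRNA against KMT2C. That library is called below the library labelled PANC1 KMT2C siRNA2. Its level of MTPN, the gene with the deepest fall, was 8.46 CPM, beside 6.47 and 7.32 CPM in the siRNA2 libraries of COLO357 and SUIT2. With siRNA1 and siRNA3 in PANC1, MTPN was at 207 and 196 CPM. The fitted difference of siRNA2 from the other 2 siRNAs was 0.35 on the log2 scale (SE 0.205, adjusted p = 0.337). Against siRNA1 alone it was 0.62 (adjusted p = 0.0435), and against siRNA3 alone 0.10 (adjusted p = 0.828).

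KMT2D mRNA (ENSG00000167548), which these siRNAs were not aimed at, was at 102 CPM in the library labelled PANC1 KMT2C siRNA2, against 30.9 and 40.7 CPM with siRNA1 and siRNA3. In COLO357 it was at 41.7 CPM against 40.9 and 70.5 CPM, and in SUIT2 at 112 against 67.7 and 100.1 CPM. The control libraries held 25.9, 32.2 and 69.5 CPM in PANC1, COLO357 and SUIT2. The fitted difference was 0.54 (SE 0.323, adjusted p = 0.350), and with PANC1 left out it was -0.00867. Exons of KMT2C and of KMT2D overlap those of other annotated genes, and how the counting treated strand is not stated in the material used here. Of the 6 tested genes of the KMT2 and SETD1 family none was called by edgeR (1 higher at an unadjusted p under 0.05), nor by DESeq2. Of 11 shared or specific subunits of their complexes none was called either (1 lower at an unadjusted p under 0.05), and again none by DESeq2.

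**Figure D1:**
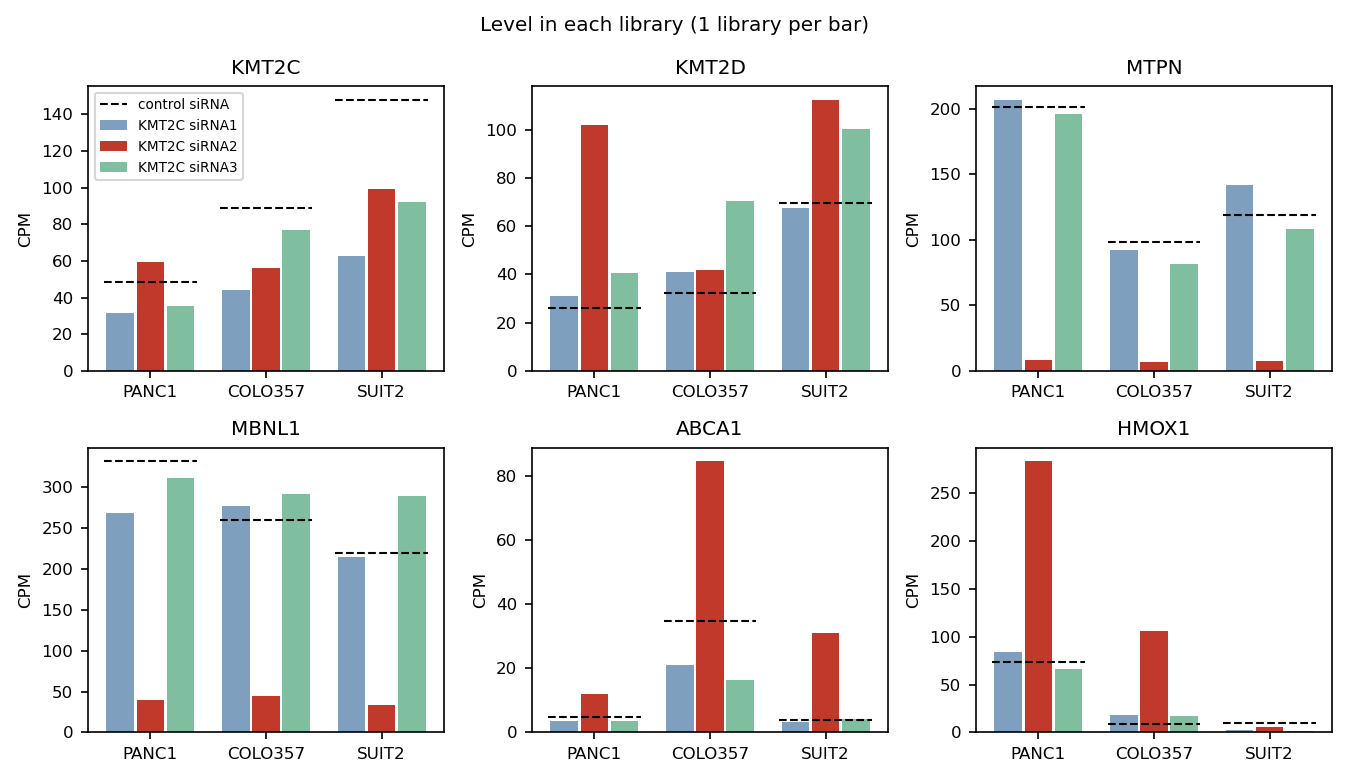
Level of 6 genes in each KMT2C siRNA library, in CPM on a linear axis from 0, with 1 library per bar and a dashed line for the control siRNA library of the same line. KMT2C reached 59.3 CPM with siRNA2 in PANC1, above the control at 48.2, while MTPN stayed at or below 8.46 CPM and MBNL1 at or below 44.1 CPM with siRNA2 in every line.

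Across the transcriptome, of 17053 genes tested, 1232 (7.22%) differed at an adjusted p under 0.05, of which 548 (3.21%) were higher and 684 (4.01%) lower with siRNA2. Falls were the larger changes: 254 genes fell and 68 rose by at least 2-fold, and 29 fell and 6 rose by at least 4-fold. The median log2 difference was -0.85 over the genes called lower, 0.63 over those called higher and 0.01 over all genes tested. The siRNA2 library lay above both other siRNAs in all 3 lines for 2303 genes (13.5% of those tested) and below both for 1673 (9.81%). Among the called genes this held for 522 of the 548 higher (95.3%) and 626 of the 684 lower (91.5%). The calls were made on the same libraries, which favours such genes, so these shares are a description.

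The counts rested on each siRNA2 library. Leaving out the library labelled PANC1 KMT2C siRNA2, 176 genes were called higher and 308 lower. Without that of SUIT2 the counts were 115 and 261, and without that of COLO357 321 and 567. Among the comparators, leaving out siRNA1 of COLO357 gave 226 and 411. Leaving out siRNA1 of PANC1 gave 301 higher genes, siRNA3 of PANC1 357 and siRNA3 of COLO357 313, while their counts of lower genes stayed within 1.5 times.

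When each siRNA had a level of its own, 806 genes were higher and 861 lower with siRNA2 than with siRNA1, and 459 were higher and 596 lower than with siRNA3. Both contrasts passed in the same direction for 669 genes (3.92%), 235 higher and 434 lower. The contrasts share the siRNA2 libraries, so their overlap is not independent evidence. Between siRNA1 and siRNA3 only 37 genes (0.217%) were called, 13 higher and 24 lower with siRNA1, and 1 of them was also among the 1232. That count was 0 without siRNA3 of SUIT2, 1 without siRNA3 of PANC1, 3 without siRNA1 of SUIT2 and 8 without siRNA1 of PANC1. It was 89 to 227 without a library of COLO357 and 102 without siRNA2 of PANC1. The 669 fell to between 246 (without siRNA3 of SUIT2) and 427 when siRNA1 or siRNA3 of PANC1, siRNA3 of COLO357 or any library of SUIT2 was left out. Library by library, the spread (SD) of the log2 difference over genes was 0.420 between siRNA1 and siRNA3 in PANC1, against 0.614 and 0.561 between siRNA2 and either of them. In COLO357 it was 0.419 against 0.539 and 0.566. In SUIT2 it was 0.587 between siRNA1 and siRNA3, 0.578 between siRNA2 and siRNA3 and 0.683 between siRNA2 and siRNA1. By this measure siRNA3 of SUIT2 was slightly closer to siRNA2 than to siRNA1. The chi-square of their counts per gene gave the other order. It was 41.7 between siRNA1 and siRNA3, 43.3 between siRNA2 and siRNA3 and 57.1 between siRNA2 and siRNA1. Which SUIT2 library lay apart from both others thus depended on the measure.

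**Figure D2:**
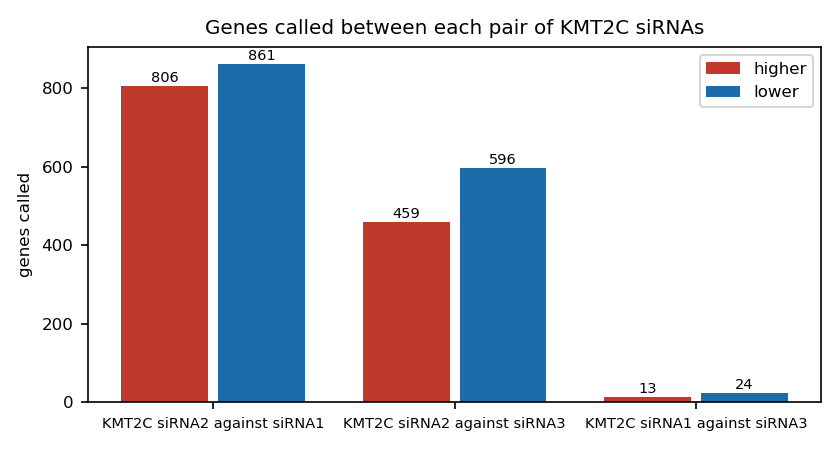
Number of genes called higher or lower (adjusted p under 0.05, edgeR) for each pair of KMT2C siRNAs, from 1 fit in which each siRNA had its own level. Both pairs with siRNA2 gave over 1000 calls in all and the pair without it 37.

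Of the 12 largest falls, 8 are described first, in which each siRNA2 library lay below every comparator library of all lines. MTPN (ENSG00000105887), myotrophin, an ankyrin-repeat protein that binds actin capping protein, was at 8.46, 6.47 and 7.32 CPM with siRNA2 in PANC1, COLO357 and SUIT2. With siRNA1 it was at 207, 92.5 and 142 CPM and with siRNA3 at 196, 81.9 and 108 CPM, and the control libraries held 201, 98.4 and 119 CPM. The siRNA2 libraries lay far below all others, with no overlap. MTPN was 17.8-fold lower (log2 -4.15, SE 0.194, adjusted p = 5.49e-07).

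MBNL1 (ENSG00000152601), the splicing regulator muscleblind-like 1, was at 39.8, 44.1 and 34.1 CPM with siRNA2 and between 215 and 311 CPM in the 6 comparator libraries, with 332, 260.1 and 219 CPM in the controls. It was 7.12-fold lower (log2 -2.83, SE 0.15, adjusted p = 1.26e-06), and the siRNA2 libraries did not overlap the others. STMN1, the microtubule regulator stathmin, was at 62.0, 39.9 and 40.8 CPM with siRNA2 and 117 to 466 CPM with the others, a 5.29-fold fall. The control level of STMN1 in SUIT2, 74.2 CPM, was itself below both comparators of that line. SETD7, a lysine methyltransferase with monomethylating activity, was at 28.8, 63.3 and 38.0 CPM against 122 to 222 CPM, 4.08-fold lower.

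ODC1, ornithine decarboxylase of polyamine synthesis, was at 62.3, 67.3 and 39.98 CPM with siRNA2 and 186 to 377 CPM with the others, a 4.65-fold fall (adjusted p = 2.98e-05). GINS1, a subunit of the replicative helicase, was at 20.6, 13.1 and 8.87 CPM against 35.1 to 122 CPM, 4.27-fold lower. MTFR1, a mitochondrial fission regulator, was at 16.2, 12.6 and 10.2 CPM against 33.1 to 79.3 CPM, 4.23-fold lower. The tetraspanin TSPAN6 was at 2.61, 5.59 and 4.36 CPM against 13.8 to 32.3 CPM, 5.10-fold lower. These 8 genes kept their call whichever single library was left out.

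The other 4 had low levels in at least 1 line. RGS4, a regulator of G-protein signalling, was at 1.18 CPM with siRNA2 against 18.4 and 4.93 in COLO357 and at 1.69 against 13.7 and 8.99 in SUIT2, but at most 0.525 CPM in any PANC1 library. Its call was lost without either of those siRNA2 libraries. The controls held 3.81 CPM of RGS4 in COLO357 and 3.52 CPM in SUIT2, between siRNA2 and both comparators of each line. LANCL3 was at 1.30 against 5.89 and 6.19 CPM in COLO357 and 0.774 against 6.68 and 3.71 CPM in SUIT2, and at most 0.0804 CPM in PANC1. BMP6, a ligand of the TGF-beta superfamily, was at 20.6 CPM in the library labelled PANC1 KMT2C siRNA2 against 73.7 and 64.6 CPM, at 0.799 against 5.32 and 3.10 CPM in COLO357 and at 0.634 against 10.3 and 3.21 CPM in SUIT2, below both others in each line (log2 -2.24, adjusted p = 0.0122). Its call was lost without the siRNA2 library of COLO357 or of SUIT2. CCL20, a chemokine, was at 1.51 against 17.9 and 14.5 CPM in COLO357 and below 1 CPM in all other KMT2C libraries. Its call was lost without the siRNA1 or the siRNA2 library of COLO357. The CCL20 control of COLO357, at 2.87 CPM, lay near siRNA2 and below both comparators, and that of SUIT2 held 6.01 CPM. For LANCL3 the controls of COLO357 and SUIT2 held 3.48 and 4.22 CPM, and for BMP6 2.87 and 4.03 CPM, above the siRNA2 libraries.

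**Figure D3:**
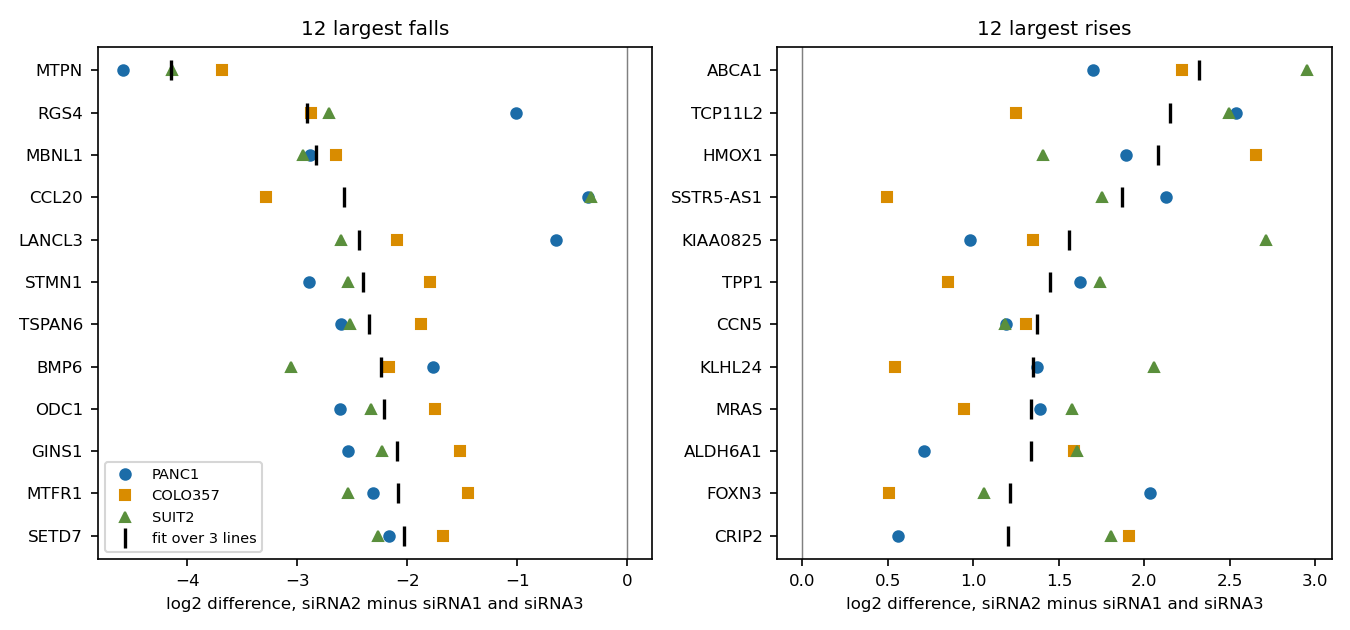
Log2 difference of the siRNA2 library from the mean of siRNA1 and siRNA3 within each line (points, CPM with a prior count of 2) and the difference fitted over 3 lines (bar), for the 12 largest falls and 12 largest rises. MTPN lies between -4.59 and -3.69 in the 3 lines, while CCL20 falls by 3.28 in COLO357 and by under 0.4 in PANC1 and SUIT2.

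The 3′ UTRs of the lowered genes were searched for shared heptamers, because siRNA seeds act through such short matches. Transcripts came from GENCODE v29, which annotates GRCh38 whereas the authors worked on hg19, with the coding transcript of longest 3′ UTR taken for each of 13128 tested genes. The heptamer GCTAGTA, on the mRNA strand, was the one whose share among lowered genes stood furthest above its share among all genes searched, which is how it was chosen. It was present in 184 of 614 genes called lower (29.97%), in 14 of 516 called higher (2.71%) and in 653 of all 13128 (4.97%). The next heptamers overlapped it: TGCTAGT was in 30.3% of lowered, 6.01% of raised and 8.36% of all genes, and CTAGTAA in 28.99%, 6.78% and 7.68%. The reverse complement, TACTAGC, was in 6.68% of lowered, 6.20% of raised and 4.13% of all genes. For genes called higher the heptamer chosen in the same way, CCTCCCT, was in 36.2%, against 23.9% of lowered and 25.3% of all genes. The siRNA sequences are not stated in the material used here, and whether GCTAGTA matches any of them was not tested.

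Of the 12 largest falls, 8 held GCTAGTA in the 3′ UTR, MBNL1 in 2 places. Of the 11 searched among the 12 largest rises, none did. The following 30-base stretches, 5′ to 3′ on the mRNA strand with T for U, show the heptamer in capitals in 7 of those falls, to set its flanks side by side.
MBNL1: gttgcatatttGCTAGTActaatcagtcaa
STMN1: ctgggttaatgGCTAGTActgtattggctc
TSPAN6: acactggaagaGCTAGTAaattgtaaatga
SETD7: ttttcagtagtGCTAGTAattttttcctcc
GINS1: aaccacttgttGCTAGTAaatagaaataca
BMP6: ctgtactctttGCTAGTAccaaaagtagac
LANCL3: aaaatttataaGCTAGTAaacttatactat

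The other falls among the 12 differed in this respect. ODC1 had GCTAGTA not in its 3′ UTR but once in its coding sequence, and TGCTAGT once in its 3′ UTR. RGS4, CCL20 and MTPN had none of the 3 overlapping heptamers in either region. The coding sequence of KMT2C itself held GCTAGTA once, and KMT2D held it in neither region. MTPN, the gene with the deepest fall, shared a run of 13 bases of its 3′ UTR with the 30-base stretch of KMT2C coding sequence around that heptamer. No other searched gene shared a longer run with this stretch, and 6 genes shared 13 bases (MTPN, PLEKHA3, DBP, ZBTB24, SIK3 and PAK3). Of these, MTPN and PLEKHA3 (log2 -0.77, adjusted p = 0.0371) were called lower, DBP was called higher (log2 0.83, adjusted p = 0.0477), and the other 3 were not called. Of all 13128 genes searched, 4.68% were called lower and 3.93% higher. Called lower were 5 of 29 genes that shared 12 or more bases with the KMT2C stretch, 9 of 113 with 11 or more and 39 of 433 with 10 or more. Runs that hold GCTAGTA, itself chosen for its share among lowered genes, were not counted apart from runs without it. This stretch was chosen after the values had been seen, and the following lines give it 2 times, with the heptamer and with the shared run in capitals.
KMT2C coding, heptamer: gaccctatcctcctgatgttGCTAGTAtgg
KMT2C coding, shared run: gaccctatccTCCTGATGTTGCTagtatgg
MTPN 3′ UTR, shared run: acagtttaTCCTGATGTTGCTtgtaatgca
ODC1 coding, heptamer: gcctgtgcttcgGCTAGTAttaatgtgtag

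The heptamer was chosen from the genes called lower in the same fit, so the values of its carriers are a description. The 653 carriers had a median log2 difference of -0.27, with -0.28 in PANC1, -0.24 in COLO357 and -0.27 in SUIT2, and of 0.02 between siRNA1 and siRNA3. Of the carriers 28.2% were called lower and 2.14% higher, against 3.45% and 4.02% of the 12475 genes without it, whose median was 0.04. The 42 genes with 2 occurrences had a median of -0.42 with 42.9% called lower, the 608 genes with 1 occurrence -0.25 with 27.3%, and of the 3 genes with more none was called. The 251 genes that held it only in the coding sequence had a median of -0.16 with 16.3% called lower. Carriers had longer 3′ UTRs, with a median of 3540 bases against 1287. Among genes with a 3′ UTR of 1000 to 3000 bases, 33.2% of 226 carriers and 3.69% of 4828 others were called lower.

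Described within the genes called lower, from which the heptamer was chosen, the share of carriers grew with the strictness of the list. It was 39.0% of 397 searched genes lower against each of siRNA1 and siRNA3, 44.2% of 215 lowered at least 2-fold, and 59 of the 100 genes with the smallest p. Among the 36 searched genes called between siRNA1 and siRNA3, 2 held it. When a line was left out and the search repeated on the genes lowered in the other lines, the same heptamer came first each time. The heptamer was then in 45.3% of lowered genes without PANC1, 38.4% without COLO357 and 34.9% without SUIT2. Each pair of these searches shares a line, so their results are not independent. In the line left out, carriers had a median below 0 (-0.28 in PANC1, -0.24 in COLO357 and -0.27 in SUIT2) and the other genes 0.03, 0.06 and 0.01. Across the alternative fits, the share of lowered genes that held it ranged from 23.7% to 45.3%, leaving aside the fit without cell lines, which called 2 genes. The heptamer's part in any gene's difference was not tested.

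**Figure D4:**
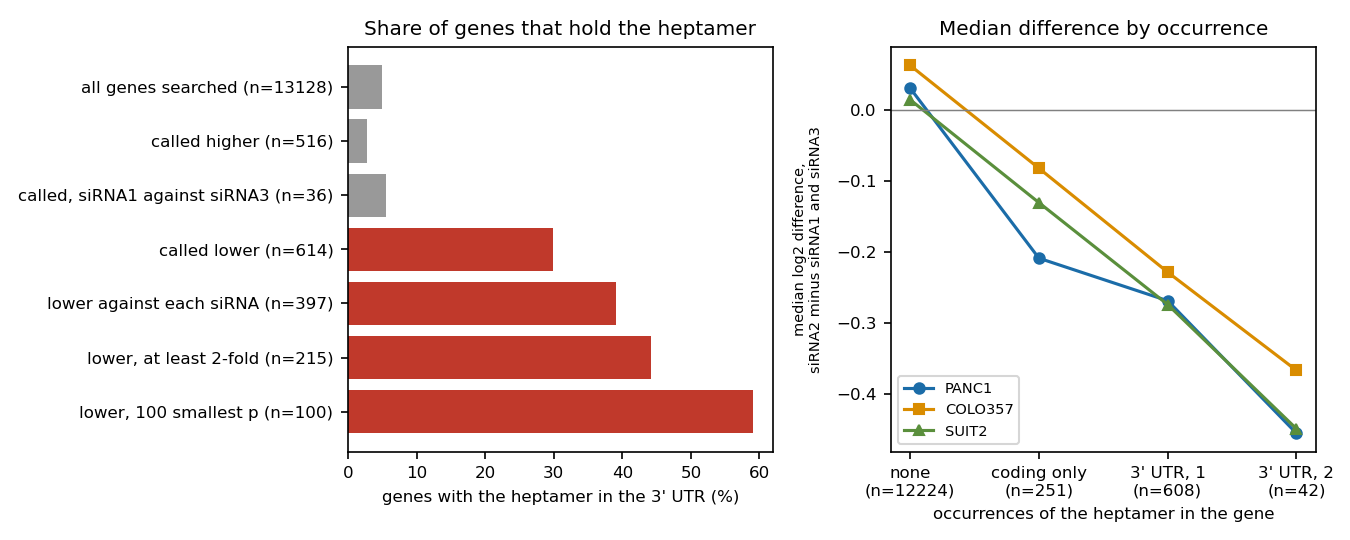
Left, share (%) of genes whose 3′ UTR holds the heptamer in each set of genes. Grey bars are all genes searched, genes called higher and genes called between siRNA1 and siRNA3. Red bars are sets of genes called lower with siRNA2 than with siRNA1 and siRNA3, from which the heptamer was chosen. Right, median log2 difference in each line for genes with no occurrence, an occurrence only in the coding sequence, and 1 or 2 in the 3′ UTR. The share goes from 4.97% of all genes to 59.0% of the 100 lowered genes with the smallest p, and the medians fall in that order in every line.

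The largest rise was that of ABCA1, the exporter of cholesterol and phospholipid from cells. It was at 12.1, 84.7 and 30.9 CPM with siRNA2 in PANC1, COLO357 and SUIT2, against 3.51, 21.0 and 3.34 CPM with siRNA1, 3.62, 16.4 and 4.09 CPM with siRNA3 and 4.76, 34.8 and 3.89 CPM in the controls. The siRNA2 library was the highest in each line, and the rise was 4.98-fold (log2 2.32, SE 0.193, adjusted p = 6.25e-05). HMOX1, the heme-degrading enzyme, was at 283, 106 and 6.12 CPM with siRNA2, against 84.1, 17.7 and 2.75 CPM with siRNA1 and 66.5, 16.7 and 1.63 CPM with siRNA3, 4.23-fold higher (adjusted p = 0.000135). Its SUIT2 control held 9.62 CPM, above all KMT2C libraries of that line.

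TPP1, a lysosomal peptidase, was at 69.7, 6.18 and 30.7 CPM against 18.5 and 26.3, 3.03 and 3.98, and 8.19 and 9.11 CPM, 2.73-fold higher. ALDH6A1, a mitochondrial enzyme of valine breakdown, rose 2.52-fold, most in SUIT2, from 22.5 and 23.9 to 74.9 CPM. TCP11L2 rose 4.43-fold, from 4.91 and 2.70 to 22.2 CPM in SUIT2 and from 0.727 and 0.523 to 4.17 CPM in PANC1. KIAA0825 rose 2.95-fold, its highest level being 13.03 CPM in COLO357. KLHL24, a substrate adaptor of a ubiquitin ligase, was at 56.1 CPM in the library labelled PANC1 KMT2C siRNA2 against 19.4 and 23.2 CPM, but in COLO357 at 5.63 against 4.41 and 3.54 CPM. FOXN3, a forkhead repressor, rose 2.32-fold, from 5.21 and 6.88 to 25.4 CPM in PANC1. MRAS, a RAS-related GTPase, rose 2.53-fold, with its highest level, 21.9 CPM, in PANC1.

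ABCA1, HMOX1, TPP1 and ALDH6A1 kept their call whichever single library was left out. KLHL24 and FOXN3 lost it without the siRNA2 library of PANC1 or of SUIT2, MRAS without that of PANC1 and TCP11L2 without that of SUIT2. CCN5 (log2 1.37, adjusted p = 0.0228), CRIP2 (1.20, adjusted p = 0.0460) and the noncoding SSTR5-AS1 (1.87, adjusted p = 0.0494) were close to the threshold and lost the call in several such fits. SSTR5-AS1 was above 1 CPM only in SUIT2, at 15.8 CPM with siRNA2 against 2.49 and 7.67 CPM. It is antisense to SSTR5, so that reads of the partners may be shared.

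Among Polycomb and enhancer acetyltransferase genes, 4 of 17 were lower with siRNA2 and none higher (23.5% lower against 4.01% of all genes), with a median of 0.03 against 0.01 over all genes tested. EED, a core subunit of Polycomb repressive complex 2, was at 13.9, 38.5 and 20.3 CPM in PANC1, COLO357 and SUIT2 against 37.7 and 25.4, 106 and 92.8, and 59.9 and 42.6 CPM, 2.49-fold lower (adjusted p = 0.000589). SUZ12, its partner in that complex, fell by 0.77 on the log2 scale, from 298 and 325 to 158 CPM in PANC1. CBX2 (log2 -0.55, adjusted p = 0.0453) and RBBP4 (-0.45, adjusted p = 0.0468) were lower near the threshold, and both calls were lost with PANC1 or COLO357 left out and without any 1 siRNA2 library. The count was then 2, except with PANC1 left out, where SUZ12 did not pass either (adjusted p = 0.0645) and the count was 1. EED and CBX2 held GCTAGTA in the 3′ UTR, and SUZ12 and RBBP4 did not.
EED: taatgtatcttGCTAGTAagggcacgtaga
CBX2: acctaccttctGCTAGTAaaggactggctt

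Of 13 genes of the RNA interference machinery, TNRC6B (log2 0.84, adjusted p = 0.0483) and AGO4 (0.84, adjusted p = 0.0287) were higher with siRNA2 (15.4% against 3.21% of all genes). TNRC6B, a scaffold of silencing complexes, was at 193, 144 and 202 CPM with siRNA2, 62.3, 76.3 and 82.8 CPM with siRNA1, 127, 106 and 134 CPM with siRNA3 and 122, 122 and 108 CPM in the controls, so the siRNA1 libraries were the lowest of each line. AGO4, an Argonaute, was at 55.1, 13.7 and 42.2 CPM against 6.70 to 46.8 CPM. Neither gene was called when siRNA2 was set against siRNA3 alone, nor without any 1 siRNA2 library.

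The list of YAP and TGF-beta genes, both targets and pathway members (27 tested, median -0.07), held 3 lowered genes (11.1% against 4.01% of all genes). It also held 1 raised gene (3.70% against 3.21%). WWTR1, which encodes the YAP paralogue TAZ, was at 145, 34.2 and 54.8 CPM with siRNA2 against 548 and 503, 83.3 and 80.3, and 287 and 174 CPM with siRNA1 and siRNA3, 3.33-fold lower (adjusted p = 0.000396). The control libraries, at 184, 42.6 and 51.2 CPM, lay near the siRNA2 libraries and not near the comparators. TGFB2, a secreted TGF-beta ligand, was 2.58-fold lower (23.8, 56.0 and 9.01 CPM against 19.3 to 193 CPM). F3, tissue factor, was 2.16-fold lower, from 1376 and 910.2 to 377 CPM in COLO357, where its control held 437 CPM. All 3 held GCTAGTA in the 3′ UTR, but the heptamer was chosen from the lowered genes, these 3 included. CCN2, the gene that was higher (log2 0.74, adjusted p = 0.0282), did not hold it. Few raised genes did, 14 of 516.
WWTR1: cacatatatgtGCTAGTActttaacttttt
TGFB2: aggggtgaagtGCTAGTAtgcaagtgggca
F3: cctcccaaagtGCTAGTAttatgggcgtga

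Of 22 tested genes of MAPK feedback and the immediate early response, 6 were lower and none higher (27.3% lower against 4.01% of all genes), with a median of -0.27. SPRY4, a feedback inhibitor of receptor tyrosine kinase signalling, was at 21.3, 3.32 and 54.8 CPM with siRNA2 against 50.1 and 58.0, 14.1 and 19.1, and 76.0 and 112 CPM (log2 -1.42, adjusted p = 0.00686). FOSL1, a subunit of AP-1, was at 49.0, 7.95 and 94.5 CPM against 15.3 to 293 CPM (-1.37, adjusted p = 0.00167). For SPRY4 the controls were at 21.7, 4.10 and 54.8 CPM, beside the siRNA2 libraries and below the comparators. IER3 (-0.90), EPHA4 (-0.78), EPHA2 (-0.71) and ETV5 (-0.50) were the other 4, and none of the 6 held the heptamer in the 3′ UTR. The count was 2 with COLO357 left out, without the siRNA2 library of COLO357 or of SUIT2, and in the fit of all 18 libraries.

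Ribosome biogenesis genes and MYC targets showed 6 lower and none higher of 26 tested (23.1% lower against 4.01% of all genes), and a median of -0.34 (-0.21 in PANC1, -0.46 in COLO357 and -0.37 in SUIT2). Apart from ODC1 these were RRS1 (-0.81), BYSL (-0.77), LYAR (-0.68), NCL (-0.67) and DKC1 (-0.54), which act in ribosomal RNA processing and subunit assembly. NCL, nucleolin, was at 1144, 1582 and 1841 CPM with siRNA2 and 1894 to 2750.3 CPM with the others. None of the 6 held the heptamer in the 3′ UTR. The count was 2 without the siRNA2 library of SUIT2, 3 without that of PANC1 and 10 without the siRNA1 library of SUIT2.

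Genes of the NF-kB pathway and chemokines had the lowest median of the lists, -1.01 over 23 tested, with 6 lower and none higher (26.1% lower against 4.01% of all genes). The medians within lines were -0.17 in PANC1, -1.57 in COLO357 and 0.02 in SUIT2. CXCL5, a neutrophil-attracting chemokine, was at 123 CPM with siRNA2 in COLO357 against 998 and 1018 CPM, with a control of 569 CPM, and was below 1 CPM in all PANC1 and SUIT2 libraries. CXCL1, a related chemokine, was at 245 against 1001 and 665 CPM in COLO357 and at 3.95 against 12.4 and 12.3 CPM in PANC1 (log2 -1.59, adjusted p = 0.00225). BIRC3, an inhibitor of apoptosis and NF-kB target, was at 148 against 707 and 501 CPM in PANC1, 168 against 1047 and 537 CPM in COLO357 and 56.4 against 135 and 64.4 CPM in SUIT2 (log2 -1.69, adjusted p = 0.0247). PTGS2 (-1.60) and CXCL3 (-1.78) were above 1 CPM only in COLO357. DESeq2 called 7 genes of the list lower and limma-voom 11. CXCL5 (log2 -0.82, adjusted p = 0.708) and CXCL3 (-1.31, adjusted p = 0.278) did not pass by DESeq2. The edgeR fit of all 18 libraries called 3 lower. CXCL1, CXCL3 and CXCL5 did not pass there (adjusted p = 0.107, 0.0762 and 0.111). With COLO357 left out no gene of the list was called, without its siRNA1 library 3 and without its siRNA2 library 1, and without the latter CXCL5 had a log2 difference of 0.80. None of the 6 held the heptamer in the 3′ UTR.

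**Figure D5:**
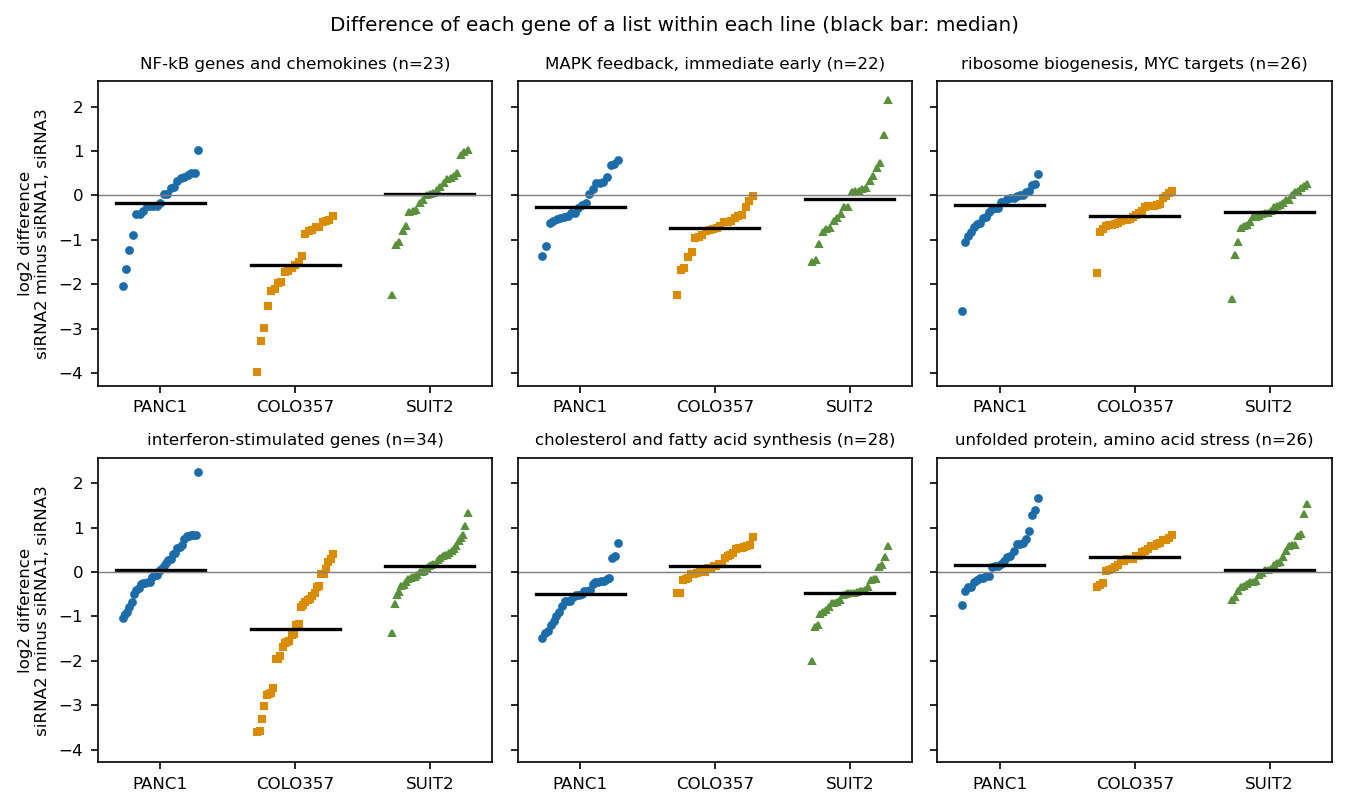
Log2 difference of siRNA2 from siRNA1 and siRNA3 for each tested gene of 6 lists within each line, sorted within the line, with the list's median as a black bar. The NF-kB list has medians of -0.17, -1.57 and 0.02, and the interferon list 0.05, -1.29 and 0.14, in PANC1, COLO357 and SUIT2.

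Of 34 interferon-stimulated genes and sensors of double-stranded RNA, 1 was lower (2.94%) and 2 were higher (5.88%), against 4.01% and 3.21% of all genes. The list had a median of -0.27 over the fit, but -1.29 in COLO357 against 0.05 in PANC1 and 0.14 in SUIT2. IFIT1, which binds foreign RNA, was lower in all lines (9.51, 6.22 and 3.17 CPM against 5.97 to 44.1 CPM, log2 -1.63, adjusted p = 0.0162). STAT2 (0.69, adjusted p = 0.0116) and IRF1 (0.57, adjusted p = 0.0283), transcription factors of the interferon response, were higher.

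The test of whether the siRNA2 difference varied between lines called 0 genes at an adjusted p under 0.05 by edgeR, with 1200 (7.04%) at an unadjusted p under 0.05. With RLE size factors the counts were 0 and 1181, and without the filter on low counts 380 and 2340. XAF1, IFI27 and TNFAIP3, the former 2 interferon-induced and the last an inhibitor of NF-kB, were among the 5 genes with the smallest p (adjusted p = 0.0709 for each). In COLO357, XAF1 was at 1.05 CPM with siRNA2 against 13.4 and 15.2 CPM, IFI27 at 4.25 against 55.7 and 51.3 CPM and TNFAIP3 at 10.6 against 58.6 and 64.7 CPM. The COLO357 control held 0.377, 2.17 and 11.3 CPM of these genes, near the siRNA2 library. In SUIT2, XAF1 was at 10.8 against 4.52 and 5.28 CPM and TNFAIP3 at 7.81 against 4.98 and 5.47 CPM. The others were SPNS2 (adjusted p = 0.0998) and ENSG00000241781, to which no name was matched, at 4557 CPM in the library labelled PANC1 KMT2C siRNA2 against 271 and 462 CPM.

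Of 29 G1/S and DNA replication genes 4 were lower and none higher (13.8% lower against 4.01% of all genes, median -0.20): GINS1, the helicase subunit MCM7 (-0.75, adjusted p = 0.00539), MCM10 (-0.49) and CDC6 (-0.44). Of 29 G2/M genes 1 was called lower in the main fit (3.45%): the mitotic kinase AURKA (-0.69, adjusted p = 0.0119). CDC20 and UBE2C, at -0.57 and -0.53, did not pass. Of the 29 genes, 24 lay below 0 (median -0.17), and 9 were lower at an unadjusted p under 0.05, against 1961 of all 17053. The count of G2/M genes called lower depended on the fit. It was 1 with limma-voom, 4 with 3 siRNA levels and with all 18 libraries, 5 by DESeq2 and 6 without the filter on low counts. MDM2, the ubiquitin ligase of p53, was at 73.2, 71.5 and 75.8 CPM with siRNA2 against 120.1 to 185 CPM (log2 -1.03, adjusted p = 0.000885), and FDXR was the p53 target that was higher (0.64) among 25 tested. In that list of CDK inhibitors and p53 targets, 4% were lower and 4% higher, against 4.01% and 3.21% of all genes. The deepest of these falls, in GINS1, was the only one with the heptamer in the 3′ UTR.

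Of the 28 tested genes that make cholesterol and fatty acids, 3 had lower levels (10.7% against 4.01% of all genes), among them SCD (-1.24) and HMGCS1 (-0.88), and the regulator SREBF1 was higher (0.60, adjusted p = 0.00753), 1 of 28 being 3.57% against 3.21% of all genes. SCD, the stearoyl-CoA desaturase, was at 205, 439 and 282 CPM with siRNA2 against 479.8 and 555, 697 and 559.6, and 1051 and 1096 CPM, and held GCTAGTA in its 3′ UTR. The medians of the list were -0.50 in PANC1, 0.14 in COLO357 and -0.48 in SUIT2. Of 26 genes that respond to unfolded proteins or amino acid stress, DDIT3 (0.89, adjusted p = 0.0136) and VLDLR (0.69, adjusted p = 0.0220) were higher (7.69% against 3.21% of all genes, median 0.28).
SCD: ctccttggtttGCTAGTAtcttgggtgtat

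Of 22 basal-like pancreatic tumour genes tested, 3 were lower and none higher (13.6% lower against 4.01% of all genes). TNS4 (-1.26, adjusted p = 0.00753), FGFBP1 (-1.53, adjusted p = 0.0350) and KRT6A (-2.01, adjusted p = 0.0423) were the 3, all near 0 in PANC1. KRT6A was above 1 CPM only in COLO357, at 48.2 against 171 and 274 CPM, and without the siRNA2 library of COLO357 its log2 difference was 2.14. Of 19 classical genes 1 was called (5.26%), TFF1, which was lower (-1.68, adjusted p = 0.0486), with at most 5.61 CPM in any library. Of 28 epithelial junction genes CLDN1 (0.95) and F11R (0.46) were higher (7.14% against 3.21% of all genes). OVOL1 (-2.85) was lower (3.57% against 4.01%), and all of these had an adjusted p above 0.04. None of 23 mesenchymal genes was called by edgeR (2 higher and 1 lower at an unadjusted p under 0.05) or by DESeq2. Of 27 housekeeping genes the transferrin receptor TFRC was higher (0.75, adjusted p = 0.00464), 3.70% against 3.21% of all genes.

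The remaining lists held few called genes. Of 23 HOX genes HOXB13 was higher (0.86), 4.35% of the list, and of 24 NRF2 targets only HMOX1 was higher (4.17%), against 3.21% of all genes. Of 26 glycolysis and hypoxia genes HK1 was lower (-0.65), 3.85% of the list, and of 21 receptor tyrosine kinases EPHA2 was lower (4.76%), against 4.01% of all genes. None of 17 replication-dependent histone genes was called by edgeR (3 lower at an unadjusted p under 0.05), and 1 was called lower by DESeq2. By class of transcript, 516 protein-coding genes were higher and 617 lower of 13175 tested, and 6 of 68 small nucleolar RNAs and 3 of 32 small nuclear RNAs were lower with none higher. Over all classes, 548 of 17053 genes tested (3.21%) were higher and 684 (4.01%) lower. RNU1-1, a gene of the U1 small nuclear RNA, was at 2.78, 4.75 and 2.18 CPM with siRNA2 against 3.28 to 9.35 CPM (log2 -1.12, adjusted p = 0.00856). Small RNAs of this kind have near-identical copies among which reads may be split. The 13 mitochondrially encoded mRNAs were listed at 0 in all 9 libraries.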

How the data were processed

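RNA-seq libraries of ribosome-depleted total RNA were read as 100 nt pairs, per the labels' protocols. The deposited values are raw counts per Ensembl gene, made by the authors with TopHat2 and HTSeq on hg19 after FastQC, and tested with edgeR, per the submitters' processing notes, without versions. The sources used here do not give the annotation release, overlap mode, strand setting or which library was in which sequencing pool.

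Entries naming no gene were dropped. edgeR 4.0.16 (R 4.3.3) fitted the 9 KMT2C siRNA libraries with cell line and siRNA2 as terms: TMM, filterByExpr by line (minimum count 10, total 15), robust quasi-likelihood F test and Benjamini-Hochberg adjustment over all genes, 5 residual degrees of freedom, biological coefficient of variation 0.174. SE is the log2 difference over the square root of F. Fits with 3 siRNA levels and with line by siRNA2 interaction had 4 and 3 residual degrees of freedom. CPM uses total gene counts. Alternatives were RLE factors, no filter, DESeq2 1.42.0, limma-voom (limma 3.58.1), other terms and left-out libraries. The test and the heptamer search were tested on simulated data.

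Replicate numbers stand for the cell line, so libraries of a line are paired by it: deviations from siRNA means correlated at 0.920 to 0.963 within lines. No 2 libraries of a line agreed within sampling noise (chi-square of their counts over genes, 25.3 to 83.6 per gene). Symbols were matched for 52526 of 63677 identifiers (82.5%) through GENCODE v29 and a table of current names.

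Named genes are KMT2C, KMT2D, the 12 largest rises and falls (adjusted p under 0.05, mean of at least 2 CPM, official symbol, siRNA2 beyond both others in all 3 lines), called list members (or the smallest p where few) and the 5 smallest p between lines. The values of 1 called list member are not reported here. The groups and lists were chosen with earlier results of these data known.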

Additional observations from a re-analysis of the deposited data

Results flagged for a closer look

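Among the 6 comparator libraries, a single library stood far from the other 5 in each of 2 measures, by Dixon's criterion at a critical value of 0.625. The criterion flags about 1 in 20 groups by chance where all values of a group are alike in kind. These 6 libraries came from 3 lines, so a level that differs between lines can be flagged for that. It was applied to KMT2C, KMT2D, the named rises and falls and several library measures. SSTR5-AS1 was at 7.67 CPM in SUIT2 with KMT2C siRNA3. The 10 highest genes took 11.02% of gene counts in COLO357 with KMT2C siRNA3.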

How the results depend on the processing

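The main counts were 548 genes higher and 684 lower with siRNA2. Without the filter on low counts they were 829 and 1127. DESeq2 gave 823 higher and the fit with 3 siRNA levels 916 higher, their lower counts staying within 1.5 times. Against siRNA3 alone the counts were 227 and 438. They were 70 and 208 with PANC1 left out, 163 and 371 with COLO357 left out, and 221 and 423 with SUIT2 left out. The cause was not tested, but these fits hold fewer samples. With no replicate block, that is without the cell line term, edgeR called 0 higher and 2 lower genes (MTPN and MBNL1), with 154 and 331 at an unadjusted p under 0.05, and all other calls of named genes were lost. Leaving out single libraries gave 115 to 630 higher and 261 to 823 lower genes. It gave 246 to 946 genes against each of siRNA1 and siRNA3, and 0 to 227 between siRNA1 and siRNA3. Without the filter 452 genes were called between siRNA1 and siRNA3, and 380 for the difference between lines.

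KMT2C passed against siRNA1 alone (0.62, adjusted p = 0.0435, against 0.10 to 0.55 in the other fits), and KMT2D was at -0.00867 with PANC1 left out. KRT6A turned to 0.31 under DESeq2. Without the siRNA2 library of COLO357, KRT6A turned to 2.14, CXCL5 to 0.80 and XAF1 to 0.97, the lowest values with another library left out being -2.21, -2.98 and -1.23. All 24 named rises and falls kept their call with RLE factors, without the filter, by DESeq2 and with 3 siRNA levels, and 16 to 23 with a library left out. Of 56 called list genes, 22 to 49 kept theirs with a library left out and 38 in the fit of all 18 libraries.

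Genes under a few CPM in a line rest on few counts there, so their differences in that line were hardly detectable at this depth. The 3′ UTR models are those of a later build, with 1 transcript per gene, and the 3′ ends used in these cells were not measured. KMT2C was measured as RNA only.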
